A study of Homo sapiens with 24 samples.

Results

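The genes described here are the 255 protein-coding zinc finger genes outside chromosome 19. They are the RefSeq genes on chromosomes 1 to 22 other than 19 whose symbol is ZNF followed by a digit, out of 20033 coding genes in the annotation. The rule uses names and positions only. They were split by how closely they lie together. A member was called clustered where it belonged to a run of at least 3 members with gaps of at most 200 kb between neighbours, which gave 96 genes in 18 runs. A further 28 members had 1 neighbour within that distance and are called pairs, and 131 had none and are called isolated. Only members counted as neighbours, so an isolated member can still lie near zinc finger genes with other symbols.

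H4K20me3, the trimethylated form of lysine 20 on histone H4, was mapped in HN-SCC-151 cells, a line from a head and neck squamous cell carcinoma without papillomavirus, by CUT&RUN. The line's genotype is given in the labels as wild type. CUT&RUN cuts and recovers the DNA that an antibody marks in intact cells. Treatment lasted 6 days, and the question of the design was how H4K20me3 changes when SUV420H1, an enzyme that methylates this lysine, is inhibited or depleted. The inhibitor arm compared 3 libraries of cells given the solvent DMSO with 3 libraries of cells given A-196 at 2.5 µM, and the siRNA arm compared 4 libraries of cells given control siRNAs (siNC) with 4 given siRNAs against SUV420H1 (siSUV420H1). A-196 inhibits SUV420H1 and also its paralog SUV420H2, while the siRNAs are named for SUV420H1 alone. Every group is this single cell line, 3 dishes are described per condition, and the siRNA groups hold 4 libraries each, so some of those libraries may share a dish and p-values measure the spread between libraries. The peak lists do not measure how far SUV420H1 itself was inhibited or depleted.

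The measure is the number of kilobases (kb) of a gene, its span plus 2 kb on each side, that lie under the broad H4K20me3 peaks of a library. A gene is called marked in a library where at least 200 bp lie under peaks. Total peak cover per library was 145 to 153 Mb in DMSO, 79.6 to 107 Mb in A-196, 183 to 193 Mb in siNC and 118 to 130 Mb in siSUV420H1, so the mean cover of the whole genome fell by 34.6% and by 33.7%. A-196 replicate 2 marked 3694 coding genes, against 2143 and 2316 in the other A-196 libraries. The lists hold no read counts, so the depth behind each peak is unknown and a domain can be seen only as present, absent, longer or shorter. Each arm was called against its own IgG library, and the arms are therefore not pooled.

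Many zinc finger proteins of this family carry a KRAB domain in front of an array of zinc fingers. The fingers bind particular DNA sequences, often within transposable elements, and the KRAB domain brings in the scaffold TRIM28 and with it the H3K9 methyltransferase SETDB1 and HP1 proteins. The family arose by repeated local duplication, so that many members lie in tandem arrays, and the arrays themselves are known to carry heterochromatin marks over their zinc finger exons. H4K20me3 is laid down by the SUV420H enzymes, largely at chromatin that already has H3K9me3.

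The windows at the gene starts of 4 members are printed as examples of different patterns of peak cover at the start. Each line gives 250 bases before to 50 bases after the annotated start, from RefSeq on GRCh38.p14, 5′ to 3′ on the strand of the gene. Capitals mark every CG dinucleotide. The start of ZNF141 (chr4:337564-337863, + strand, 16 CG) was under a peak in all 14 libraries. The start of ZNF680 (chr7:64563022-64563321, - strand, 13 CG) was under a peak in all 4 siSUV420H1 libraries and in none of the siNC libraries, and in the inhibitor arm in DMSO replicates 1 and 3 only. The start of ZNF281 (chr1:200409987-200410286, - strand, 21 CG) was under a peak in all 7 control libraries and in no treated library of either arm. The start of ZNF365 (chr10:62374119-62374418, + strand, 39 CG) was under a peak in the 8 siRNA arm libraries and in none of the inhibitor arm.
ZNF141: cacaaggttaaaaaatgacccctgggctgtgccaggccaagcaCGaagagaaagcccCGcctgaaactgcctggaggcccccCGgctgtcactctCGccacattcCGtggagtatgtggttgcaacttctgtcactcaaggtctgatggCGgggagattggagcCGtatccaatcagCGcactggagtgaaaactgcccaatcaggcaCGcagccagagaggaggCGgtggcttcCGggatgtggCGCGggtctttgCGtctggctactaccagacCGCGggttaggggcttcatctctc
ZNF680: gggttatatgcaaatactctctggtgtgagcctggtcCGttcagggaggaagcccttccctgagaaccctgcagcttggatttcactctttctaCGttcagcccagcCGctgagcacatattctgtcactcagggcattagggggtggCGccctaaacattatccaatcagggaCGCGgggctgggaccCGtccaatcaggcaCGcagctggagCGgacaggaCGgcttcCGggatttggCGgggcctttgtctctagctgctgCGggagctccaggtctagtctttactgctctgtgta
ZNF281: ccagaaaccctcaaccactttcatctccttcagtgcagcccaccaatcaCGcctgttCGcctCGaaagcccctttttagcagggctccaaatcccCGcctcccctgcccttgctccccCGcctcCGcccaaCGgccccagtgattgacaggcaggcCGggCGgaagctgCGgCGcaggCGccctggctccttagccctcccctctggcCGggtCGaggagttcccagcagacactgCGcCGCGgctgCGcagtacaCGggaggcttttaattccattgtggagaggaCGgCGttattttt
ZNF365: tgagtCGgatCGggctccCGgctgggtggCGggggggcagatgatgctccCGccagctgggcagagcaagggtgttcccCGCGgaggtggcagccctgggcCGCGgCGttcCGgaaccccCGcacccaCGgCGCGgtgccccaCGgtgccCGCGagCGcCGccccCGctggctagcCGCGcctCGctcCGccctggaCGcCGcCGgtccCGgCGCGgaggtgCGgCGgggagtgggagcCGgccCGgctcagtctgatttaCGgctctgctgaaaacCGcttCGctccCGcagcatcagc

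As a class mean, clustered members carried more H4K20me3 than isolated members in every library. Much of that gap in kb per gene lay in clustered members near chromosome ends, as given below. The mean over clustered members in DMSO was 12.2 ± 0.27 kb per gene (SD, n = 3 libraries), against 5.42 ± 0.19 kb for isolated members and 8.78 ± 0.23 kb for pairs. In siNC the means were 13.5 ± 0.22 kb, 6.58 ± 0.11 kb and 10.2 ± 0.13 kb in the same order (SD, n = 4 libraries). Clustered genes are not longer: their median span was 20.2 kb, against 30 kb for isolated genes and 22.4 kb for pairs. As a share of the sequence, peaks covered 39.9% of clustered members in DMSO and 44.2% in siNC, but 6.83% and 8.30% of isolated members. For all coding genes that share was 2.90% and 3.72%.

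The lowest value for clustered members in any of the 14 libraries, 9.90 kb per gene in A-196 replicate 2, lay above the highest value for isolated members, 6.65 kb in siNC replicate 2. Not every member was marked. No peak reached 105 of the 255 members in any library, 31 of them clustered, 12 in pairs and 62 isolated. In contrast 63 members were marked in all 14 libraries, 37 clustered, 6 in pairs and 20 isolated.

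**Figure D1:**
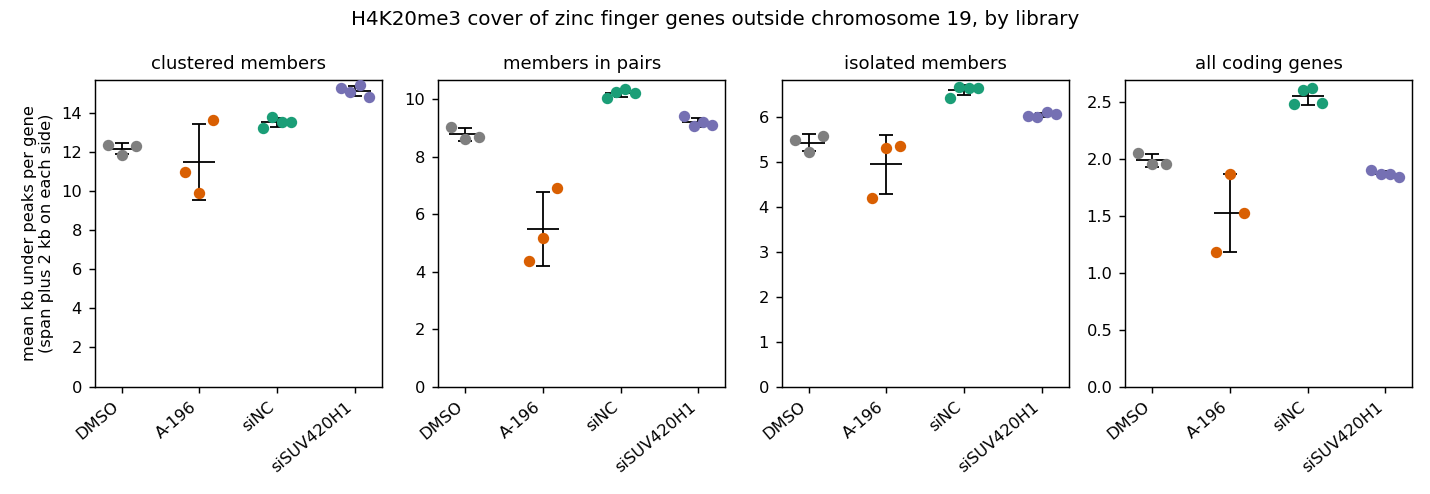
Mean kb per gene under H4K20me3 peaks in each of the 14 libraries for clustered, paired and isolated members and for all coding genes. Points are single libraries, bars are the mean and SD of a group, and each vertical axis starts at 0 with its own scale. Clustered members lie above isolated members in each library.

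The runs differed from one another over the whole range from no cover to complete cover. The run of 7 genes from ZNF605 to ZNF268 on chromosome 12 (chr12:132918306-133214832, 297 kb) was covered end to end in DMSO in 3 of 3 libraries and in siSUV420H1 in 4 of 4. Its lowest value in any library was 282 kb. The run of 5 genes from ZNF595 to ZNF721 at the start of chromosome 4 (chr4:53321-499156, 446 kb) carried 411 to 424 kb in DMSO and 333 to 383 kb in siNC. At the other end, the 9 genes from ZNF48 to ZNF629 on chromosome 16 and the 3 from ZNF619 to ZNF621 on chromosome 3 had no peak in any of the 14 libraries. Among the 18 runs, 11 held at least 1 member marked in all 14 libraries and 2 had every member so marked.

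Members with at least 90% of span and flanks under peaks in all 14 libraries numbered 12 among the clustered genes, 7 of them the whole chromosome 12 run. There was 1 in the pairs and there were 5 among the isolated genes. Position on the chromosome moved with this pattern: 23 clustered members lay within 2 Mb of a chromosome end, against 8 isolated members. Clustered members near an end were covered over 75.5% of their sequence in DMSO, and clustered members farther away over 24.4%. Isolated members near an end were covered over 5.37%. Isolated members away from the ends stood at 6.90%. As a share of sequence in DMSO, clustered members away from the ends thus still had more cover than isolated members at either position. In kb per gene the gap away from the ends was smaller, with DMSO means of 6.75 kb for clustered and 5.56 kb for isolated members. Clustered members near an end had 29.4 kb. In siNC the means away from the ends were 8.996 kb (clustered) and 6.66 kb (isolated). In A-196 replicate 2 that order was reversed, with 4.796 and 5.239 kb, and in every other library clustered members lay above. What part of the contrast between classes goes with distance from a chromosome end was not tested further.

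**Figure D2:**
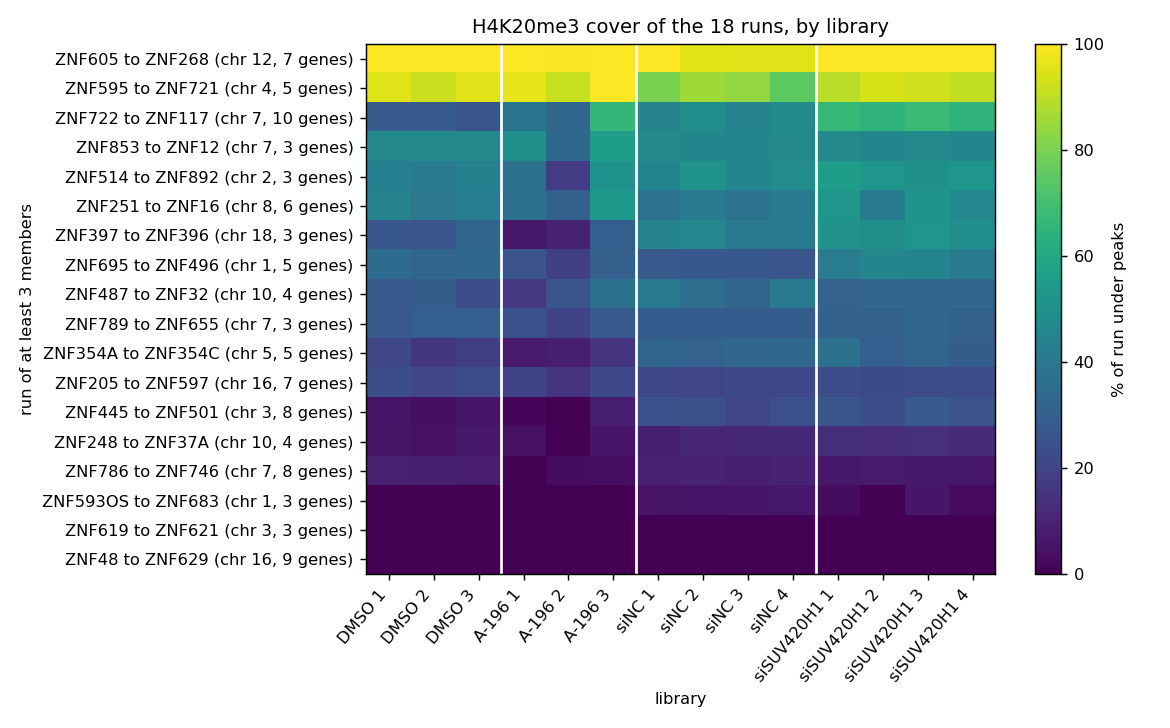
Share of each of the 18 runs (rows) under H4K20me3 peaks in each of the 14 libraries (columns), as a colour from 0 to 100%, with white lines between the 4 groups. The ZNF605 to ZNF268 run stands at or close to complete cover, and the runs ZNF48 to ZNF629 and ZNF619 to ZNF621 stand at 0.

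The longest marked stretches belonged to a few members. ZNF678, an isolated gene on chromosome 1 (chr1:227563556-227679669) that encodes a KRAB zinc finger protein, had 118, 96.1 and 114 kb in DMSO and 85.4, 70.4 and 108 kb in A-196. It had 87.1, 90.1, 88.4 and 86.1 kb in siNC and 80.1, 79.4, 81.4 and 88.1 kb in siSUV420H1. The groups overlapped in both arms, and its cover exceeded that of any other member in every control library. ZNF141 (chr4:337814-384868), a clustered KRAB member, was covered over its whole 51.1 kb of span and flanks in each of the 14 libraries. ZNF717, an isolated member on chromosome 3, had 21, 22 and 20 kb in DMSO and 49.8 to 60.8 kb in siNC. Those control groups belong to separate arms, so their gap was not tested.

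Within the gene, cover of clustered members was lower at the start than farther in. Strand and start were given for 209 of the 255 members, 81 of them clustered and 103 isolated. In siNC the 2 kb before the start were covered over 32.9% ± 2.12 of the length (SD, n = 4 libraries) averaged over clustered members, the sixth of 10 equal parts of the gene over 46.4% ± 1.28, and the last part over 43.9% ± 0.25. In siSUV420H1 the same 3 positions stood at 37.4% ± 3.21, 49.7% ± 0.96 and 46.7% ± 0.91. Isolated members had 10.5% ± 0.95 in the first part and 20.2% ± 0.43 in the sixth part in siNC, but 12.6% ± 2.16 and 13.5% ± 0.38 in DMSO (SD, n = 3), where their 5′ flank was highest at 15.1% ± 0.71. The 300 base start window lay under a peak (at least 150 bp) in 26.8 of 81 clustered members on average in siNC, and the end of the gene in 34.5. For the 103 isolated members these counts were 13.5 and 14.8 in siNC, and 13 and 11 in DMSO.

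**Figure D3:**
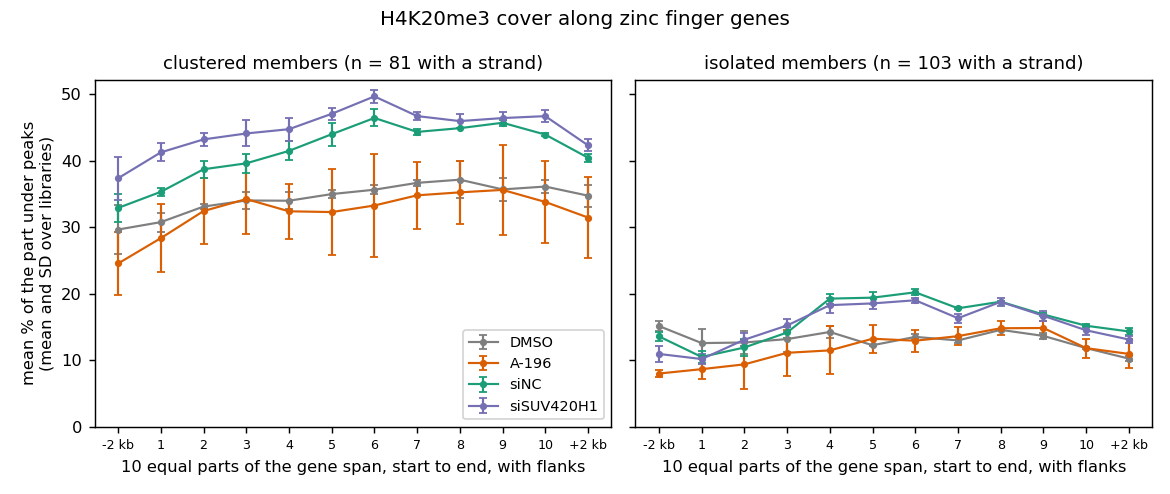
Share of length under H4K20me3 peaks along the gene, from the 2 kb before the start through 10 equal parts to the 2 kb after the end, for 81 clustered and 103 isolated members. Points and bars are the mean and SD over the libraries of a group, and clustered members are lowest at the 5′ flank in siNC and siSUV420H1.

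The CG content of the start windows was compared between marked and unmarked starts. The 14 clustered members whose start was under a peak in all 14 libraries had a median of 24.5 CG in 300 bases, and the 39 whose start was under a peak in none had a median of 26. The 5 isolated members with a start under a peak in all libraries had a median of 7 CG, against 26 for the 79 with none. CG was found in 99.0% of the members' windows and in 98.1% of 15841 coding gene windows, and its median was 24 and 22 per window. The letters TATAAA, on either strand, occurred in 3.83% of members' windows and in 9.75% of all windows. None of the 4 windows printed above holds TATAAA.

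Depletion of SUV420H1 by siRNA was accompanied by longer mean cover of clustered members and shorter mean cover of isolated members. Clustered members had 13.2, 13.8, 13.6 and 13.5 kb per gene in the siNC libraries and 15.3, 15, 15.4 and 14.8 kb in the siSUV420H1 libraries. All 4 siSUV420H1 libraries lay above all 4 siNC libraries. Isolated members had 6.42, 6.65, 6.63 and 6.63 kb in siNC and 6.02, 5.99, 6.10 and 6.05 kb in siSUV420H1, and here all 4 depleted libraries lay below the controls. The mean sequence under peaks in siSUV420H1 differed from that in siNC by 11.96% for clustered members, -8.22% for isolated members and -10.1% for pairs, and by -27.9% for all coding genes. The difference between these classes has no test of its own. When each library was scaled to the same total cover, the difference of the isolated members changed sign to 2.11 kb per gene and that of the clustered members went from 1.62 to 7.76 kb, and with that scaling the median change over the 4001 coding genes with a peak in the arm moved from -0.43 to 0.00186 on the log2(kb + 1) scale. With peaks under 10 kb left out, the isolated members' change was 0.139 kb per gene in place of -0.541. As a median over members it was 0, and of 58 isolated members tested 12 were lower and 10 higher without overlap. The largest isolated falls without overlap, in ZNF503, ZNF385B, ZNF366 and ZNF365, are given below, and the mean without these genes was not computed. Without the chromosome 7 run described below, the clustered difference was 1.08 kb per gene.

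At the level of single genes, a member was counted as higher or lower where the libraries of the compared groups did not overlap. In the siRNA arm 130 members had a peak in some library, and 31 of them were higher (23.8%) against 10.4% of the 4001 coding genes with a peak. The count of lower members was 17 (13.1%) against 33.5% of those genes. Among 59 clustered members 19 were higher and 1 was lower, the gene ZNF683. Among 58 isolated members 10 were higher and 12 were lower, and among 13 members of pairs 2 were higher and 4 were lower. The exact permutation test of 4 against 4 libraries, two-sided, cannot go below p = 0.0286, and after Benjamini-Hochberg adjustment over the 4001 genes these members stand at 0.065. No member and no other gene passed an adjusted p of 0.05 by that test (0.0% of genes), and 43.9% of genes had an unadjusted p under 0.05. With limma on log2(kb + 1), 22 clustered members passed an adjusted p of 0.05 as higher and 1 as lower, and 11 isolated members passed as higher and 15 as lower, beside 12.8% of all tested genes as higher and 37.1% as lower. On cover scaled to the library total 95 members were higher (73.1%) and 9 lower (6.92%) without overlap, against 31.4% and 23.5% of all tested genes.

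Most sequence of clustered members that was under peaks in all 4 siSUV420H1 libraries, 1169 of 1363 kb, was also under peaks in all 4 siNC libraries. Of the 1 kb bins of clustered members that were under peaks in all 4 siNC libraries, 1221 in all, 95.7% were also under peaks in all 4 siSUV420H1 libraries and 0.246% in none. A further 77 kb were under peaks in all siSUV420H1 libraries and in no siNC library. Of that length, 93.5% lay in stretches that bordered a bin covered in some siNC library. For isolated members 79.9% of 765 kb were kept in all treated libraries and 9.54% were lost. Over chromosomes 1 to 22 as a whole 49.6% were kept and 32.3% were lost. Peaks over clustered members had a median width of 19 kb in each siNC library and of 23.8 ± 1.71 kb in siSUV420H1 (SD, n = 4), while their number went from 60.8 to 55 per library.

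The run from ZNF722 to ZNF117 on chromosome 7 (chr7:63998849-64991036, 992 kb, 10 members) showed the largest difference in kb of the 18 runs in the siRNA arm. It had 442, 486, 440 and 469 kb in siNC and 664, 644, 675 and 647 kb in siSUV420H1, with no overlap. In the inhibitor arm it had 285, 283 and 259 kb in DMSO and 383, 337 and 657 kb in A-196, also with no overlap, and A-196 replicate 3 stood far above the other two. It was the one run of the 18 whose cover was higher without overlap in the inhibitor arm. Within the spans of its 10 members the cover was 199 to 246 kb in siNC, 276 to 287 kb in siSUV420H1, 187 to 200.3 kb in DMSO and 174 to 279 kb in A-196, so most of the added cover lay between the members, and in the inhibitor arm the groups overlapped within them. In the siRNA arm 8 of the 18 runs were higher without overlap and 1 was lower, the ZNF786 to ZNF746 run on chromosome 7, which had 36 to 42 kb in siNC and 27 to 31 kb in siSUV420H1. Little of that lay within its zinc finger genes, 1.35 to 2.35 kb in siNC and 2.35 to 6.35 kb in siSUV420H1, and no member of the run was lower in the siRNA arm. That run was also lower in the inhibitor arm, with 33 to 40 kb in DMSO and 0, 15 and 16 kb in A-196, and 0 to 6.35 and 0 to 6.06 kb of those lay within its zinc finger genes. It was 1 of 3 runs lower without overlap in the inhibitor arm. The ZNF695 to ZNF496 run had 126 to 135 kb in DMSO and 73 to 119 kb in A-196. The ZNF354A to ZNF354C run had 59.5 to 79.5 kb in DMSO and 26.5 to 55.5 kb in A-196.

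**Figure D4:**
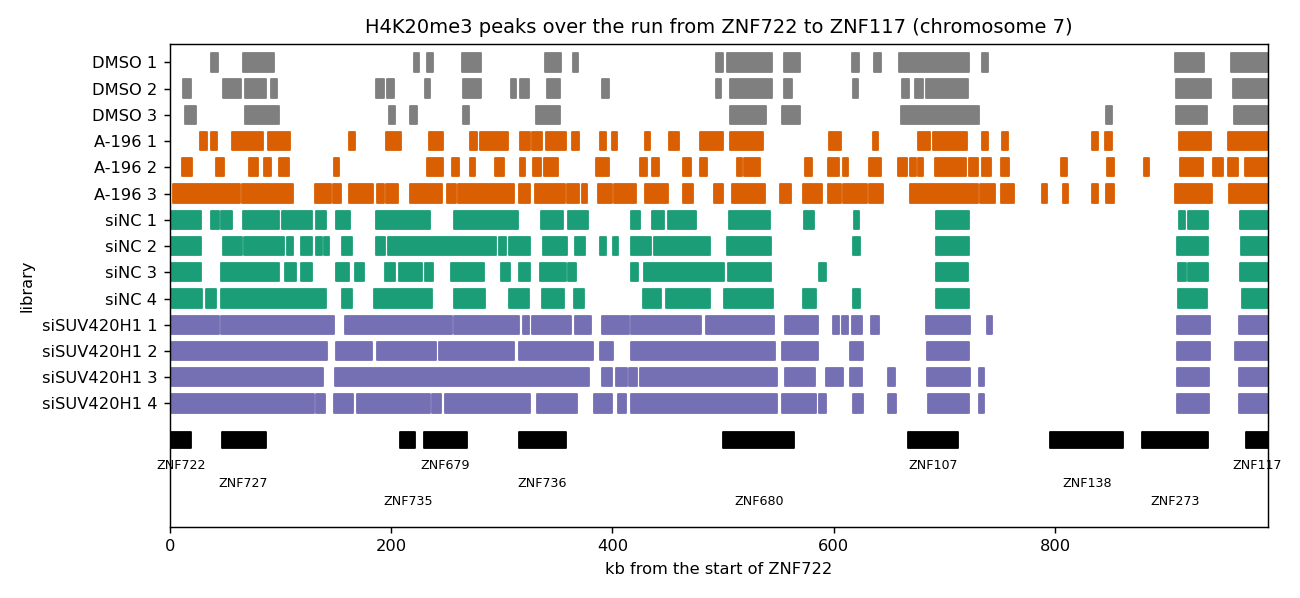
H4K20me3 cover along the ZNF722 to ZNF117 run on chromosome 7 in the 14 libraries (1 row each), plotted against distance in kb from the start of the run, with the 10 genes below. Total cover was 440 to 486 kb in siNC and 644 to 675 kb in siSUV420H1.

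The 4 members with the largest increase without overlap were clustered: ZNF680, ZNF124, ZNF695 and ZNF736, all KRAB genes by background knowledge. ZNF680, in the chromosome 7 run (chr7:64499069-64563071), had 37, 40, 41.9 and 44 kb in siNC and 58, 62, 61 and 64 kb in siSUV420H1. The groups did not overlap, and the added cover included the start window printed above. ZNF124 (chr1:247121975-247172379) had 27, 24, 25 and 26 kb in siNC and 46, 48, 48 and 40 kb in siSUV420H1, again with no overlap. ZNF695, in the same run on chromosome 1 (chr1:246945546-247008057), had 19, 17.1, 19 and 20 kb in siNC and 32.1, 33.1, 34.1 and 33.1 kb in siSUV420H1. Its values did not overlap either, and the run from ZNF695 to ZNF496 as a whole went from 104 to 108 kb to 160 to 176 kb. ZNF736 (chr7:64313961-64356634), next to ZNF680 in the chromosome 7 run, had 21, 34, 34 and 31 kb in siNC and 39.7, 44.6, 46.7 and 39.7 kb in siSUV420H1.

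Marked in every siSUV420H1 library and in no siNC library were 2 members, against 1.7% of the genes tested. ZNF19, a KRAB gene of a pair on chromosome 16 (chr16:71473583-71489324), was at 0 in the 10 libraries of the other groups and at 9.42 kb in each of the 4 siSUV420H1 libraries. ZNF34, a clustered KRAB gene on chromosome 8, was at 0 in siNC and at 11.8, 4.78, 11.8 and 10.8 kb in siSUV420H1. ZNF34 was also at 0 in DMSO and in A-196 replicates 1 and 2, but at 11 kb in A-196 replicate 3.

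Of the 17 members with lower cover after depletion, 12 were isolated. These are 20.7% of the 58 isolated members tested, below the 33.5% of all tested coding genes that were lower. ZNF385B had 34, 45, 39 and 46 kb in siNC and 22, 20, 20 and 19 kb in siSUV420H1. ZNF503, a developmental zinc finger gene on chromosome 10 (chr10:75279725-75401916), had 54, 55, 54 and 51 kb in siNC and 25, 42, 31 and 28 kb in siSUV420H1. Both were lower in every depleted library than in any control, ZNF503 with a wide spread after depletion. ZNF366, which encodes the nuclear receptor corepressor also called DC-SCRIPT, had 28, 22, 26 and 21 kb in siNC and 9, 7, 9 and 8 kb in siSUV420H1. ZNF365, linked to genome stability, had 43.6, 46.6, 44.6 and 45.6 kb in siNC and 30.6, 32.6, 31.6 and 28.6 kb in siSUV420H1, and its start window remained under a peak in all 8 libraries.

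In the siRNA arm 6 members were marked, with at least 200 bp under peaks, in every siNC library and in no siSUV420H1 library, against 14.8% of the genes tested. These were ZNF474 of a pair and the isolated genes ZNF281, ZNF532, ZNF804A, ZNF318 and ZNF704. ZNF532 kept 0.077 kb, under the threshold, in each siSUV420H1 library. ZNF804A, a gene known from genetic studies of schizophrenia, had 9, 9, 10 and 8 kb in siNC and 0 in all 4 siSUV420H1 libraries. ZNF704 on chromosome 8 had 9, 8, 7 and 6 kb in siNC and also 0 in all 4. ZNF281, which encodes a transcription factor active in stem cells, had 2.04, 2.04, 3.04 and 3.04 kb in siNC and 0 in all 4 siSUV420H1 libraries. Little of ZNF281 and ZNF318 was covered to begin with, at most 4.04 and 2.65 kb in any library. With gene spans alone, without the 2 kb flanks, 3 members in place of 6 met the rule.

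In the inhibitor arm the A-196 libraries varied more than any other group, with an SD of 1.93 kb per gene for clustered members against 0.27 in DMSO. Clustered members had 12.3, 11.9 and 12.3 kb per gene in DMSO and 10.9, 9.90 and 13.6 kb in A-196. The groups overlapped, because A-196 replicate 3 lay above all DMSO libraries and the other two lay below them. The mean difference for clustered members was -0.675 kb and changed sign, to 0.124 kb, without A-196 replicate 2, and with cover scaled to the library total it was 4.64 kb. Isolated members had 5.47, 5.21 and 5.57 kb in DMSO and 4.18, 5.29 and 5.34 kb in A-196, also overlapping, with a difference of -0.480 kb that became 1.78 kb on the scaled measure. Scaling did not centre this arm: the median change over its 5673 coding genes with a peak went from 0.668 to 0.968 on the log2(kb + 1) scale. Pairs had 9.04, 8.62 and 8.67 kb in DMSO and 4.36, 5.17 and 6.90 kb in A-196, with all 3 treated libraries below the controls. The mean sequence under peaks in A-196 differed from that in DMSO by -5.41% for clustered members, -8.87% for isolated members and -37.2% for pairs, and by -24.1% for all coding genes.

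Of 139 members with a peak in the inhibitor arm, 28 were lower without overlap (20.1%) against 19.3% of the 5673 coding genes with a peak. The count of higher members was 8 (5.76%) against 3.83%. Both of these unscaled shares lay close to those of all genes. Among 61 clustered members 8 were lower and 3 higher, among 63 isolated members 13 were lower and 5 higher, and among 15 members of pairs 7 were lower and none was higher. The exact permutation test of 3 against 3 libraries, two-sided, cannot go below p = 0.1, which adjusts to 0.432 over the 5673 genes, so no gene could pass either an adjusted or an unadjusted threshold of 0.05 (0.0% of genes). With limma on log2(kb + 1), 6 members passed as lower and 3 as higher at an adjusted p of 0.05, beside 8.51% and 2.89% of all tested genes. Without A-196 replicate 3 the count of lower members was 49, and without A-196 replicate 1 the count of higher members was 13. On cover scaled to the library total 12 members were lower (8.63%) and 42 higher (30.2%), against 13.6% and 8.99% of all tested genes.

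The members that lost the most cover under A-196 were ZNF365, ZNF503 and ZNF366, all isolated. ZNF365 (chr10:62374369-62480285) had 45.6, 44.6 and 46.6 kb in DMSO and 5, 5 and 10 kb in A-196. ZNF503 had 47, 45 and 41 kb in DMSO and 0, 5 and 18 kb in A-196. Both groups were far apart in each gene, and ZNF503 kept no cover in A-196 replicate 1. ZNF366 (chr5:72439903-72507410) had 40, 36 and 38 kb in DMSO and 0, 0 and 12 kb in A-196. ZNF475, in a pair with ZNF474 on chromosome 5, was covered over its whole 26.5 kb of span and flanks in each DMSO library and had 0.658, 0 and 8.66 kb in A-196. In each of these genes A-196 replicate 3 kept the most cover. ZNF624, in a pair on chromosome 17, had 26.8, 33.6 and 31.9 kb in DMSO and 12, 8 and 19 kb in A-196, whereas its siNC and siSUV420H1 values, 30.8 to 32.8 kb in both groups, overlapped.

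In the inhibitor arm 5 members were marked, with at least 200 bp under peaks, in every DMSO library and in no A-196 library, against 6.22% of the genes tested. These were ZNF391 and ZNF474 of pairs, the isolated genes ZNF281 and ZNF318, and the clustered gene ZNF212. ZNF281 kept 0.036 kb, under the threshold, in A-196 replicates 1 and 3. ZNF391 had 8.91, 6 and 12 kb in DMSO and 0 in the 3 A-196 libraries. Its cover in the siRNA arm was 26.9 to 28.3 kb in siNC and 12 to 20.9 kb in siSUV420H1. ZNF212, a KRAB gene in the ZNF786 to ZNF746 run, had 3.35, 1.35 and 2.35 kb in DMSO and 0 in A-196. In siSUV420H1 it had 4.35 to 8.35 kb, at or above the siNC values of 3.35 to 4.35 kb.

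Higher cover under A-196 was led by ZNF469 and ZNF713, both isolated. ZNF469, a very long gene mutated in brittle cornea syndrome (chr16:88100931-88440753), had 10, 9 and 10 kb in DMSO and 32.8, 49 and 32 kb in A-196. In the siRNA arm it had 15 to 18 kb in siNC and 12 to 16 kb in siSUV420H1, with overlap. ZNF713 (chr7:55887456-55942225) had 25.2, 24.2 and 25.2 kb in DMSO and 37.2, 47.2 and 50.8 kb in A-196. It was also higher after depletion, by a smaller amount, with 23.2 to 24.2 kb in siNC and 25.2 to 27.2 kb in siSUV420H1. Marked in every A-196 library and in no DMSO library was 1 member, against 2.84% of the genes tested. This was ZNF423, a cofactor of SMAD proteins in BMP signalling, with 0 in DMSO and 6, 32 and 8 kb in A-196, where no single kb of the gene was under a peak in all 3 A-196 libraries.

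**Figure D5:**
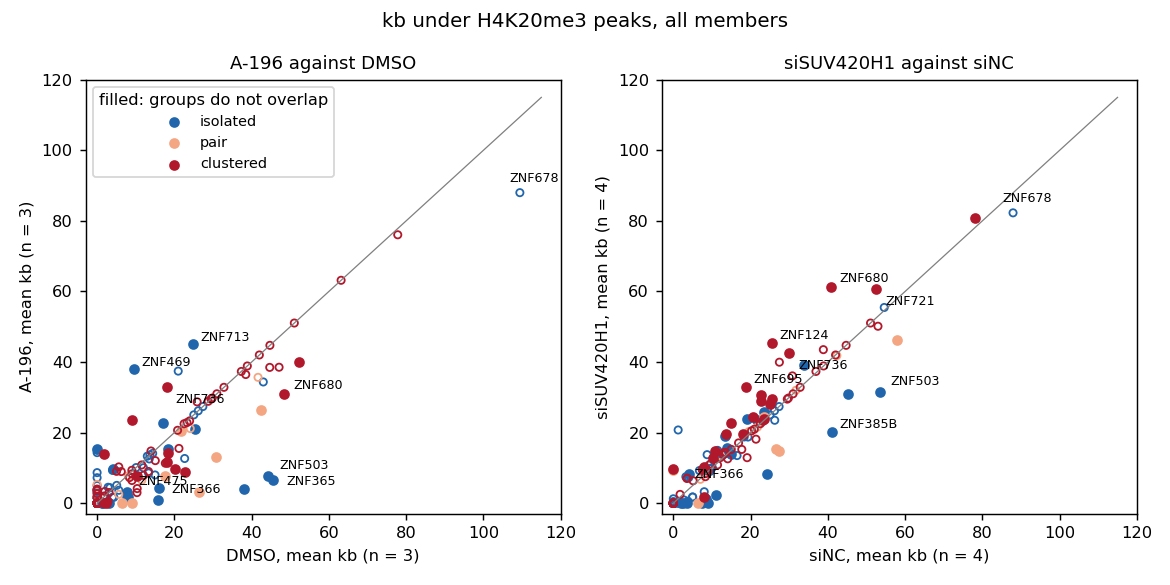
Mean kb under H4K20me3 peaks of each of the 255 members in treated against control libraries, left for A-196 against DMSO (n = 3 and 3) and right for siSUV420H1 against siNC (n = 4 and 4). Filled points are members whose groups do not overlap: left, 28 below and 8 above the diagonal, and right, 17 below and 31 above.

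Across both arms, 10 members were lower without overlap in each: ZNF362, ZNF281, ZNF365, ZNF503, ZNF804A, ZNF366, ZNF474, ZNF475, ZNF391 and ZNF318. None of these is clustered. They are 8.4% of the 119 members with a peak in both arms, against 19.6% of 3031 such coding genes. Higher in both were ZNF713, ZNF736 and ZNF92, or 2.52% of members against 1.06% of those genes. The arms use separate libraries and separate controls. For ZNF736 the inhibitor arm gave 14, 19 and 21 kb in DMSO and 36, 25 and 37.6 kb in A-196.

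In a further 10 members the arms went in opposite directions without overlap, in 9 of them lower under A-196 and higher after depletion and in ZNF385B the other way. The 9 are 7.56% of the members with a peak in both arms, against 1.81% of all coding genes with one, and for the other direction the shares are 0.84% and 0.726%. ZNF680 had 54, 45 and 46.1 kb in DMSO and 31.9, 19 and 41.9 kb in A-196, while its siSUV420H1 values lay above siNC as given above. ZNF670, a clustered KRAB gene next to ZNF695, had 27.8, 16.8 and 23.8 kb in DMSO and 8, 5 and 13.8 kb in A-196, and 22 to 23.4 kb in siNC and 26.4 to 32.2 kb in siSUV420H1. ZNF354A, a KRAB gene on chromosome 5, had 19.5, 19.5 and 21.5 kb in DMSO and 10.5, 6 and 13 kb in A-196, and 13.5 to 14.5 kb in siNC and 17.5 to 20.5 kb in siSUV420H1. In all 3 genes the groups of each arm did not overlap. The change in the siRNA arm minus the change in the inhibitor arm was 37.9 kb for ZNF680, 20.2 kb for ZNF670, 18.3 kb for ZNF695, 17.3 kb for ZNF33B and 16.3 kb for ZNF354A, and 4.92 to 8.92 kb for ZNF195, ZNF354B, ZNF322 and ZNF394. For ZNF385B it was -26.4 kb. An exact permutation of labels within each arm gave p = 0.00143, two-sided and the smallest it can give, for each of these 10, but 0.123 after Benjamini-Hochberg adjustment over 6643 genes, so none passed and no gene of any kind did (0.0%).

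Zinc finger genes on chromosome 19 had longer cover after depletion, as the clustered members had, and the difference between these sets was not tested. The 250 genes were covered over 47.1% in siNC and 59.1% in siSUV420H1, a difference of 25.5% in sequence under peaks, and 86 of 210 tested genes were higher (41%) against 3 lower. Of all tested coding genes in the siRNA arm 10.4% were higher and 33.5% lower. In the inhibitor arm 8 of 229 chromosome 19 genes were lower (3.49%) and 20 were higher (8.73%). The shares of all tested coding genes there were 19.3% and 3.83%. The 43 other coding genes that lie inside the 18 runs were covered over 26.8% in siNC and 29.8% in siSUV420H1, less than the clustered members themselves at 44.2% and 49.5%. Of 21 of these neighbours with a peak, 5 were higher after depletion (23.8%, against 10.4% of all tested genes). None was lower, against 33.5% of all tested genes. The 74 coding genes outside chromosome 19 with symbols ZKSCAN, ZSCAN, ZFP or ZBTB and a number, which belong to related zinc finger families, were covered over 11.2% in siNC and 10.8% in siSUV420H1 beside 8.30% and 7.62% for isolated members.

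The genes of the silencing pathway that KRAB zinc finger proteins use were taken as a list of 34, from TRIM28 and SETDB1 through HP1 proteins, H3K9 and H4K20 methyltransferases and the HUSH complex to demethylases. Of these 12 had a peak in some library, beside 6596 of all 20033 coding genes (32.9%), and TRIM28, KMT5B (SUV420H1) and KMT5C (SUV420H2) had none. In the inhibitor arm 8 were tested, of which 2 were lower (ATF7IP and EHMT1) and none was higher. Over all tested coding genes in that arm 19.3% were lower and 3.83% higher. In the siRNA arm 8 were tested, of which 2 were lower (ATF7IP2 and PHF2) and 3 were higher (SETDB1, EHMT1 and RSF1). There the shares over all tested coding genes were 33.5% lower and 10.4% higher. With 8 genes tested per arm, these counts are too small to set the list apart from other genes. ATF7IP2, a relative of the SETDB1 cofactor ATF7IP, had 32.6 to 33.6 kb in siNC and 10.6 to 17.6 kb in siSUV420H1. SETDB1 had 5 to 8 kb in siNC and 9 kb in each siSUV420H1 library. The squamous keratin genes KRT5, KRT14, KRT6A and KRT17 had no peak, and 2 of the 10 squamous markers on the list, TP63 and DSP, had one in some library. TP63 was covered in every library, over 203 to 234 kb in DMSO, 57.3 to 110 kb in A-196, 117 to 127 kb in siNC and 50.3 to 58.3 kb in siSUV420H1. Of markers of other cell types, 4 of 5 fibroblast, 3 of 4 endothelial and 2 of 5 leukocyte genes had a peak in some library. Single libraries marked fewer. For fibroblast genes the count was 0 in DMSO, 0 to 1 in A-196, 2 to 3 in siNC and 1 in siSUV420H1. Endothelial genes had the same counts except 0 to 1 in DMSO, and leukocyte genes had at most 1 in any library. These lists say where the mark lies and not which genes are expressed.

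Some members are close copies of each other, ZNF33A and ZNF33B or ZNF354A and ZNF354B among them, and how reads that match several copies were placed is not given in the sources used here. Cover of such members is therefore uncertain between copies. Members of a run also share peaks, so their calls are not independent: the 19 higher clustered members lay in 8 runs.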

How the data were processed

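Per the labels' protocols, each H4K20me3 CUT&RUN reaction used 500000 HN-SCC-151 cells. Of 24 samples in the labels, the 14 H4K20me3 libraries were used, grouped by their titles, and the other 10 (IgG, H3K4me3 and H3K27me3) were not analysed here. Each deposited file lists the start and end of broad peaks of 1 library as base-pair coordinates on hg38, without scores. The tools named in the submitters' processing notes are cutadapt 4.4, Bowtie, Picard 2.27.3 and bedtools 2.30.0. Which program called the peaks, and how reads with several matches were placed, is not given in the sources used here. Every peak began and ended on a 1 kb grid, with a narrowest peak of 5 kb and a smallest gap of 2 kb.

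Gene spans came from the RefSeq table for GRCh38.p14, and start windows from its promoter table, which matched 209 of 255 members. Overlaps were computed with Python 3.11.15, numpy 2.4.6 and pandas 2.3.3. Per gene, kb under peaks were compared within each arm with an exact two-sided permutation test, Benjamini-Hochberg adjusted over all coding genes with a peak in the arm. As an alternative, limma 3.58.1 (R 4.3.3) was fitted to log2(kb + 1). Means over members have no test. The members, classes and lists were chosen with earlier results of these data known.

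Genes named in the text were the 8 members with the longest cover in the controls of each arm, the 5 lower and 5 higher members with the largest difference, up to 6 lost or gained members, the 6 members with the largest opposite movement in the arms, and members of runs. ZNF362, ZNF92, ZNF195 and ZNF322 fell outside this rule and were named after their values were seen. Alternatives were other peak filters, no flanks, scaling to total cover, other definitions of a run, a replicate block and leaving out each library. Protein sequences were not used here.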

Additional observations from a re-analysis of the deposited data

Results flagged for a closer look

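Among 60 groups of 4 libraries checked for a library far from the other three, 7 had one, and chance gives about 1 in 20. In siNC replicate 1 the mean over isolated members was 6.42 kb per gene, below the other siNC libraries, and ZNF33B (14 kb) and ZNF718 (78.8 kb) stood above theirs. In siNC replicate 3 ZNF354A stood high at 14.5 kb and ZNF474 low at 5.57 kb. In siSUV420H1 replicate 2 the low values were ZNF34 at 4.78 kb and ZNF354A at 17.5 kb. Since peak ends lie on a 1 kb grid, ZNF33B, ZNF354A in siNC, ZNF474 and ZNF718 stand apart by 1 grid step from libraries with equal values.

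In 10 members all treated libraries of an arm lay on one side of their controls and in the other arm on the opposite side. The siRNA change minus the A-196 change was 37.9 kb for ZNF680, 20.2 kb for ZNF670, 18.3 kb for ZNF695, 17.3 kb for ZNF33B, 16.3 kb for ZNF354A, 8.92 kb for ZNF195, 7.85 kb for ZNF354B, 4.96 kb for ZNF322, 4.92 kb for ZNF394 and -26.4 kb for ZNF385B. The adjusted p of the exact permutation test of this difference was 0.123 for each, so none passed.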

How the results depend on the processing

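Depth is unknown and changes under 1 kb cannot be seen. In the inhibitor arm 28 members were lower, 8 higher, 5 lost and 1 gained cover. Leaving out 1 library gave 28 to 49 lower, 8 to 13 higher, 5 to 9 lost and 1 to 4 gained. The highest counts of lower and lost members came without A-196 replicate 3. The clustered difference ranged from -1.74 kb (without A-196 replicate 3) to 0.124 kb (without A-196 replicate 2), and the isolated difference from -0.680 to -0.103 kb. Scaling to total cover gave 12 lower and 42 higher members and differences of 4.64 kb (clustered) and 1.78 kb (isolated). It moved the median change of the 5673 genes tested in the inhibitor arm by 0.30 on the log2(kb + 1) scale, from 0.668 to 0.968. In the siRNA arm it moved the median by 0.43, from -0.431 to 0.00186. Scaling thus centred the siRNA arm, but in the inhibitor arm it raised a median that was already positive. With peaks of at least 10 kb there were 2 higher, 10 lost and 0 gained members and an isolated difference of -1.49 kb. Without flanks 2 members were lost. With limma 6 were lower and 3 higher.

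In the siRNA arm 17 members were lower, 31 higher, 6 lost and 2 gained cover, and leaving out 1 library gave 17 to 21, 31 to 35, 6 to 8 and 2. Scaling to total cover gave 9 lower (6.92%) and 95 higher (73.1%) members, against 23.5% and 31.4% of all tested genes. The differences were then 7.76 kb (clustered) and 2.11 kb (isolated). With peaks of at least 10 kb there were 11 lower and 5 gained members and an isolated difference of 0.139 kb. Without flanks 3 were lost. The clustered difference, 1.62 kb, was 1.02 kb with runs of at least 2 members, and 1.08 kb without the ZNF722 to ZNF117 run, a setting chosen after seeing the data. The isolated difference, -0.541 kb, was -0.634 kb with peaks within 5 kb merged, -0.373 and -0.716 kb with gaps of at most 100 and 500 kb, and 0 as a median over members. The cause of these shifts was not tested, beyond the smaller number of peaks or libraries in some.

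Replicate numbers did not pair the libraries. The correlations over genes given here concern departures of a library from its group mean, not cover itself. Same-numbered libraries stood at -0.101, -0.00633 and -0.140 in the inhibitor arm and at 0.138, 0.0911, -0.511 and -0.284 in the siRNA arm. Differently numbered libraries ranged from -0.081 to 0.161 in the inhibitor arm and from -0.414 to 0.464 in the siRNA arm. What the larger values in the siRNA arm come from was not tested. With a replicate block, counting members that moved one way in every pair, 36 were lower and 8 higher in the inhibitor arm and 23 lower and 41 higher in the siRNA arm, and the mean differences were equal to those without it (-0.675, -0.480, 1.62 and -0.541 kb).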
